A study of Mus musculus with 6 samples.

Results

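MERVL, the MT elements and the ORR1 elements are class III endogenous retroviruses, retrotransposons framed by long terminal repeats (LTRs). MERVL, whose LTR is MT2_Mm, keeps its own coding sequence. The MT and ORR1 elements are mammalian apparent LTR retrotransposons, which lack the coding sequence to copy themselves and depend on proteins made by other elements. MERVL is known for its strong transcription in the mouse embryo at the 2-cell stage and in the rare ES cells that resemble that stage, and MT elements for their transcripts in the oocyte. An LTR holds the promoter, and recombination between both LTRs of a copy leaves a solo LTR, so that LTRs are far more common in the genome than the internal parts they once framed.

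The families were chosen by name alone, as those starting with MERVL, MT2, MTA, MTB, MTC, MTD, MTE, ORR1 or MLT. This gave 50 of the 302 transposon families of the study, 19 of them internal parts, written with the ending -int, and 31 LTRs. They comprised 2 MERVL, 6 MT2, 2 MTA, 4 MTB, 2 MTC, 2 MTD, 25 ORR1 and 2 MLT1 families, and 5 families named MLTR. No family name in the files started with MTE. The 5 MLTR families (MLTR11A, MLTR11B, MLTR14, MLTR18B_MM and MLTR25A) share the prefix, but repeat annotation places them in other retrovirus classes. The calls were the same 4, 1 and 3 over the 3 comparisons among the 45 families without them. A further 9 families whose names are shortened in the files were not matched by the rule and were not assigned to any group. Whether MTE or other class III families are among them cannot be told from the names.

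All 6 samples were WT J1 ES cells, a single mouse ES cell line grown without feeder cells on gelatin in the presence of LIF. D0 cells were in serum medium. D6 and D13 cells had spent 6 or 13 days in 2i+vitC, a serum-free medium with the Gsk3 inhibitor CT-99021, the MEK inhibitor PD0325901 and vitamin C, which the study used to remove DNA methylation quickly. Each day had 2 biological replicates, and the comparisons ask how transcripts of these families changed between days of the conversion. All 10 ES cell markers were present, with a summed level of 4982 to 7071 CPM per sample, that is, read counts scaled to a common library size. Single markers moved within this sum. From D0 to D13, 1 passed the threshold given below as lower, Lin28a with a log2 fold change of -4.91. Another 3 passed as higher, Dppa5a, Klf4 and Nanog with 1.31, 1.29 and 1.37. Of all genes, 16.3% fell and 16.6% rose over these days. Of the markers of other cell types, 3 of 10 for primitive endoderm were listed, with a summed level of 17.8 to 20.4 CPM at D0 and 3.48 to 5.42 CPM later, 4 of 8 for fibroblasts, with 13.5 to 33.1 CPM at D0 and 7.84 to 10.6 CPM later, and 4 of 7 for trophoblast, with 15.0 to 30.0 CPM over all samples. Gata4 and Gata6, on the primitive endoderm list, could not be matched, since gene names in the files lack each capital G. The summed level leaves them out. The fall in the primitive endoderm sum was that of Dab2, with a mean log2 CPM of 4.03, -0.30 and -0.63 at D0, D6 and D13. The other listed markers of this type had higher means at D6 and D13 than at D0 and did not pass the threshold given below. The part of these other cell types in the results was not tested.

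Sequence that the study used to follow MERVL is shown here because the deposited families carry names only. The forward and reverse primers of its RT-qPCR assay are given first, in lower case. The last sequence is the 190-base stretch of the mouse transcript Gm48271 that lies between and under these primers, with the primer sites in capitals.
MERVL forward primer: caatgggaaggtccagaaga
MERVL reverse primer: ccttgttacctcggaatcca
Gm48271 stretch: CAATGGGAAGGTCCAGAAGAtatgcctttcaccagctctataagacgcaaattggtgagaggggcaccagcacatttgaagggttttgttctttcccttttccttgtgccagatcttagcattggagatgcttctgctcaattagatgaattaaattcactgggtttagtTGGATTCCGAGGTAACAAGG
Gm48271 is an unclassified transcript of 1 exon, and the stretch lies in that exon at chr10:50294575-50294764 on the minus strand of GRCm38, in GENCODE vM21. Of 141767 annotated mouse transcripts, 13 held either primer site and 3 held both, facing each other 190 bases apart. The other two were Gm47808, at chr12:11510797-11510986 on the minus strand, and Tmem72, where the stretch ran against the gene at chr6:116686828-116687017. Each of these differed from the Gm48271 stretch at 1 base. The same stretch thus stands at several places of the genome, and the deposited table used here gives reads per family and not per copy.

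Weighted reads on the 50 families numbered 67361 and 56412 in D0 samples, 95555 and 66012 in D6 samples, and 41718 and 49826 in D13 samples. They were 4.74% to 5.75% of the weighted reads on all transposon families in a sample, and 1 family had between 25 and 19104 of them. Internal parts took 73.9% to 84.3% of these reads, a share of reads that is not corrected for length. A level of 3 reads was 0.034 to 0.042 CPM, below every value of these families.

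Replicates of a day differed across whole groups of families. Replicate 1 exceeded replicate 2 in 41 of the 50 families at D0, by a median of 0.24 on the log2 CPM scale, and in 50 of 50 at D6, by 0.65. At D13 it was below replicate 2 in 44 of 50 families, with a median difference of -0.88. The other 252 families differed likewise, by medians of 0.46, 0.80 and -0.75, while the medians over genes were -0.06, -0.02 and 0.01. D6 replicate 1 was therefore the high library and D13 replicate 1 the low library for transposons. A shift common to many families between days has to be read against this spread.

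**Figure D1:**
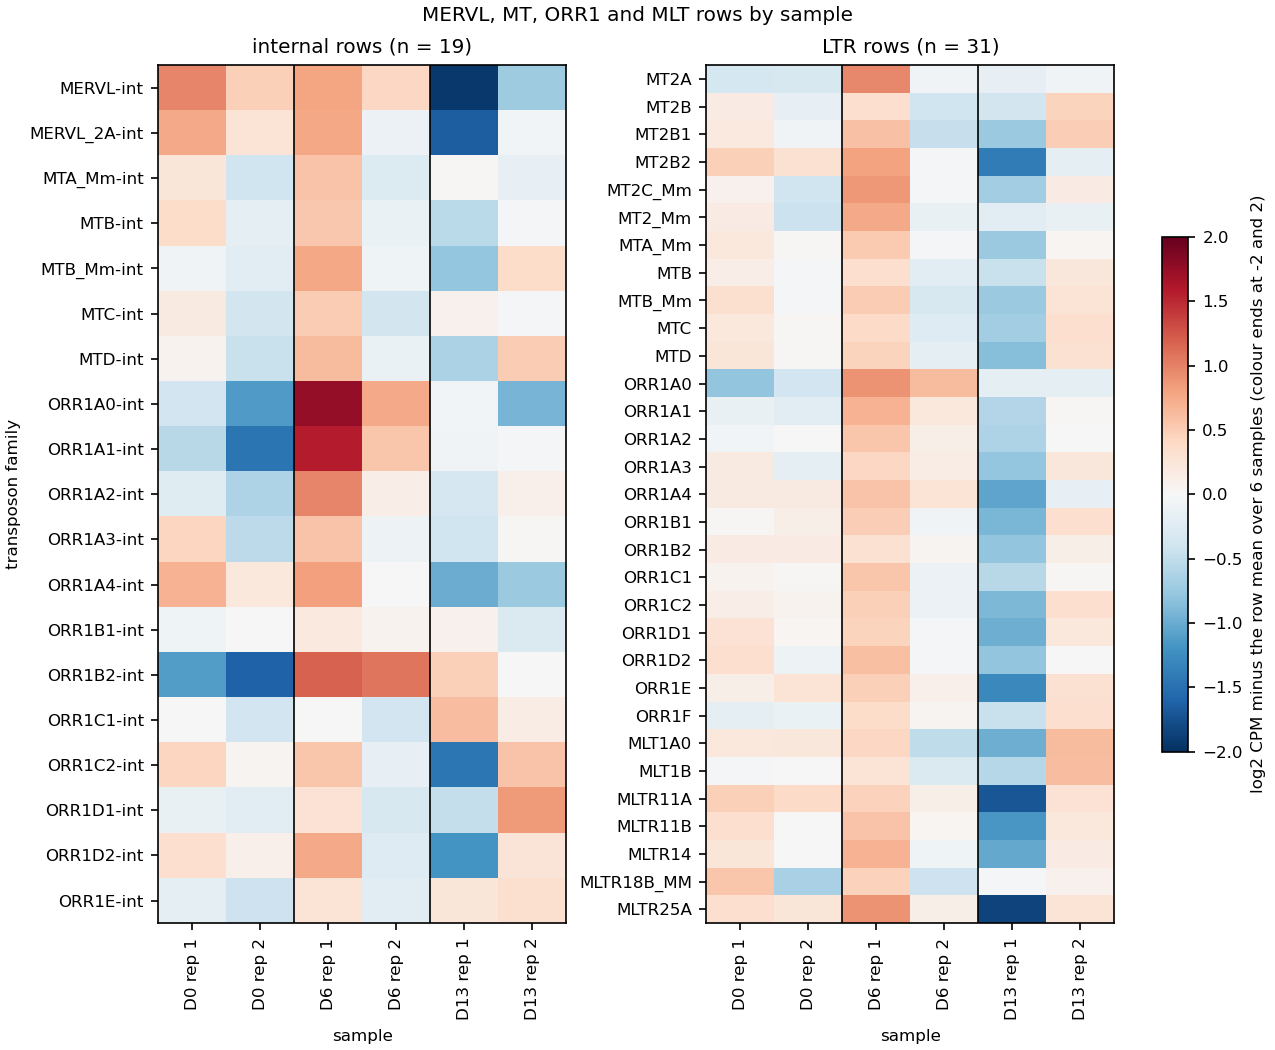
Log2 CPM of each family in each of the 6 samples, minus its mean over them, as colour (red higher, blue lower), with the 19 internal parts on the left and the 31 LTRs on the right. D6 replicate 1 is above replicate 2 in 50 of 50 families, D13 replicate 1 is below replicate 2 in 44 of 50, and D13 replicate 1 gives MERVL-int, MERVL_2A-int, MLTR11A and MLTR25A their darkest blue.

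As a group, the 50 families were slightly higher at D6 and lower at D13. Their median change on the log2 scale was 0.15 over the first 6 days, -0.56 over the days to D13 and -0.28 over the whole course, beside 0.18, -0.35 and -0.10 over all 302 families and 0.19, -0.29 and -0.09 over the 252 others. The difference between these groups of families was not tested. The mean was highest at D6 in 34 of the 50 families and in 178 of the 302. These medians rested on the libraries that stood apart. Without D6 replicate 1 the median from D0 to D6 turned to -0.16 and that from D6 to D13 to -0.21. Without D13 replicate 1 the median from D6 to D13 was -0.10 and that from D0 to D13 turned to 0.13. The families that stood out from this common course were few, and most of them were internal parts. Internal parts had a lower median standard error of the change than LTRs, 0.38 against 0.42. The part of this in the calls was not tested.

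From D0 to D6, 4 of the 50 families rose and 0 fell, with a threshold of over 2-fold and an adjusted p under 0.05 in limma. Of all 302 families 12.9% rose and 0% fell by the same threshold, so that the count of 4 was no higher a share than among transposons in general. An unadjusted p under 0.05 was found in 5 of the 50, the called ones included, and in 48 of the 302. All 4 that rose belonged to ORR1A and ORR1B, the ORR1 groups usually held to be the youngest, and 3 of them were internal parts.

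The rise with the smallest standard error was that of ORR1B2-int. Its log2 CPM was 3.59 and 3.09 in D0 samples, 5.88 and 5.77 in D6 samples, and 5.18 and 4.72 in D13 samples. Every D6 and D13 value lay above both D0 values, and both D6 values above both D13 values. The log2 fold change from D0 to D6 was 2.48 (SE 0.27, limma adjusted p = 0.000327), which is 5.59-fold. It was still 1.61 from D0 to D13 (SE 0.27, limma adjusted p = 0.00203), or 3.05-fold. Both calls held when any single library was left out.

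ORR1A1-int had a log2 CPM of 3.34 and 2.43 in D0 samples, 5.47 and 4.44 in D6 samples, and 3.82 and 3.87 in D13 samples. The days did not overlap between D0 and D6, although the replicates within each of these days were about 1 log2 unit apart. The log2 fold change was 2.07 (SE 0.41, limma adjusted p = 0.00645), or 4.21-fold. Without D6 replicate 1 it was 1.56, with an adjusted p of 0.0503 in limma. From D0 to D13 the difference was 0.96 (SE 0.41, limma adjusted p = 0.0885), which did not pass.

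ORR1A0 rose in both its parts. ORR1A0-int stood at a log2 CPM of 5.28 and 4.53 in D0 samples, 7.42 and 6.42 in D6 samples, and 5.62 and 4.73 in D13 samples. Both D6 values were above all others, and the D13 values overlapped those of D0. The log2 fold change from D0 to D6 was 2.01 (SE 0.42, limma adjusted p = 0.00868), or 4.04-fold, and without D0 replicate 2 it was 1.64 (limma adjusted p = 0.0654). Its LTR, ORR1A0, had values of 0.48 and 0.88 in D0 samples, 2.17 and 1.89 in D6 samples, and 1.08 and 1.09 in D13 samples. Here the 3 days did not overlap, and the log2 fold change from D0 to D6 was 1.35 (SE 0.37, limma adjusted p = 0.0287), or 2.55-fold. This call was the least firm: the adjusted p in limma was 0.0761 without D0 replicate 1, 0.292 without D6 replicate 1 and 0.145 without D6 replicate 2.

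Among the internal parts of ORR1A, the change from D0 to D6 was large in the first names of the series and near 0 in the last. The log2 fold change was 2.01 for ORR1A0-int, 2.07 for ORR1A1-int, 0.98 for ORR1A2-int, 0.28 for ORR1A3-int and -0.04 for ORR1A4-int. Neighbours in this order were not tested against each other, and their standard errors ran from 0.32 to 0.42. ORR1A2-int had values of 4.20 and 3.83 at D0 and 5.42 and 4.58 at D6, which did not overlap, but its adjusted p in limma was 0.0640. The 5 ORR1A LTRs changed by 0.24 to 1.35, and only ORR1A0 among them passed. ORR1B1-int, the other internal part of ORR1B, was at 6.20 and 6.29 in D0 samples, 6.48 and 6.36 in D6 samples, and 6.36 and 5.996 in D13 samples. The change from D0 to D6 was 0.17 (SE 0.22, limma adjusted p = 0.633), beside the 2.48 of ORR1B2-int.

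**Figure D2:**
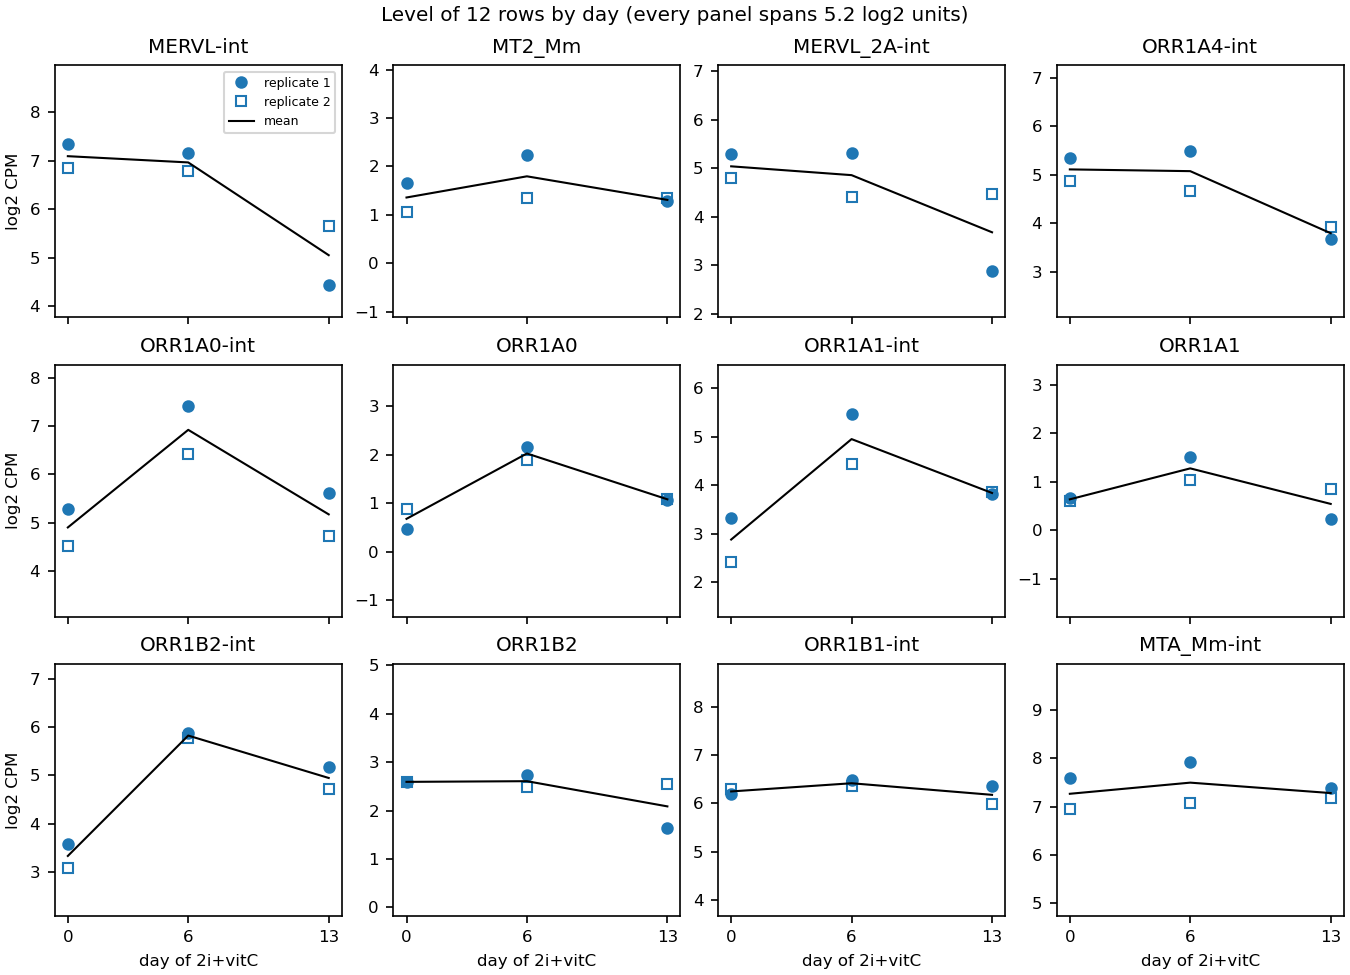
Log2 CPM of 12 families against the day of 2i+vitC (0, 6 and 13), with replicate 1 as filled circles, replicate 2 as open squares and the mean of the 2 as a line. ORR1A0-int, ORR1A1-int and ORR1B2-int are highest at D6, MERVL-int and ORR1A4-int stay level to D6 and are lowest at D13, and ORR1B1-int stays between 5.996 and 6.48 throughout.

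From D6 to D13, 1 of the 50 families fell and 0 rose, beside 3.97% that fell and 0% that rose of all 302. At an unadjusted p under 0.05 there were 9, all of them lower at D13, beside 45 of the 302. The family that fell was MERVL-int, and by D13 it was also below its level in serum.

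MERVL-int, the part of MERVL that codes for its Gag and Pol proteins, had a log2 CPM of 7.34 and 6.84 in D0 samples, 7.15 and 6.78 in D6 samples, and 4.44 and 5.66 in D13 samples. D0 and D6 overlapped, and both D13 values were below all of the earlier ones, although they were themselves 1.22 apart. The change from D0 to D6 was -0.13 (SE 0.38, limma adjusted p = 0.849). Between D6 and D13 it dropped, with a log2 fold change of -1.91 (SE 0.38, limma adjusted p = 0.0337), or 3.77-fold lower. This call was lost without D6 replicate 1 (limma adjusted p = 0.120), D6 replicate 2 (0.0809) or D13 replicate 1, where the log2 fold change was -1.30 (0.128). Without D13 replicate 2 it was -2.52. In bulk RNA, fewer cells with MERVL transcripts and fewer transcripts per cell cannot be told apart.

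MERVL_2A-int, the second internal part of this group, followed a like course with a wider spread. Its log2 CPM was 5.29 and 4.80 in D0 samples, 5.31 and 4.41 in D6 samples, and 2.89 and 4.48 in D13 samples. The D13 values overlapped those of D6 and lay below those of D0. Between D6 and D13 the change was -1.18 (SE 0.51, limma adjusted p = 0.193) and between D0 and D13 it was -1.36 (SE 0.51, limma adjusted p = 0.0575), and neither passed. Without D13 replicate 1 the latter was -0.57.

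Families that had risen by D6 were lower again at D13. ORR1A0-int changed by -1.74 (SE 0.42, limma adjusted p = 0.0544), ORR1A1-int by -1.11 (SE 0.41, limma adjusted p = 0.142) and ORR1B2-int by -0.87 (SE 0.27, limma adjusted p = 0.100), none of which passed. ORR1A4-int and MT2B2, level from D0 to D6, changed by -1.28 (SE 0.32, limma adjusted p = 0.0574) and -1.19 and did not pass either, and 44 of the 50 families were lower at D13 than at D6. MLTR25A changed by -1.30, after MERVL-int and ORR1A0-int the next by size, with values of 1.99 and 1.22 at D6 and -0.75 and 1.37 at D13. Its D13 replicates were thus on either side of the lower D6 value. The largest differences in the other direction were 0.58 in ORR1C1-int, 0.25 in ORR1E-int and 0.20 in ORR1D1-int, and none passed.

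From D0 to D13, 1 of the 50 families rose and 2 fell, beside 9.27% and 5.63% of all 302 families. At an unadjusted p under 0.05 there were 6, beside 55 of the 302. ORR1B2-int rose, as given above, and MERVL-int and ORR1A4-int fell. MERVL-int was 4.12-fold lower, with a log2 fold change of -2.04 (SE 0.38, limma adjusted p = 0.00323), a call that held without any single library. The size rested on D13: the log2 fold change was -1.43 without D13 replicate 1 and -2.65 without D13 replicate 2. ORR1A4-int was 2.49-fold lower.

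ORR1A4-int had a log2 CPM of 5.35 and 4.87 in D0 samples, 5.48 and 4.67 in D6 samples, and 3.68 and 3.92 in D13 samples. Its course was like that of MERVL-int, level from D0 to D6 and below all earlier values at D13. Its change between D0 and D13 was -1.32 (SE 0.32, limma adjusted p = 0.0110), and it was -1.08 without D0 replicate 1 (limma adjusted p = 0.0655) and -1.20 without D13 replicate 1 (limma adjusted p = 0.0659). ORR1A4-int and ORR1B2-int thus belonged to neighbouring ORR1 groups and ended on opposite sides of their D0 levels. When D13 replicate 2 was left out instead, so that D13 rested on the low library, 1 family rose and 10 fell.

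**Figure D3:**
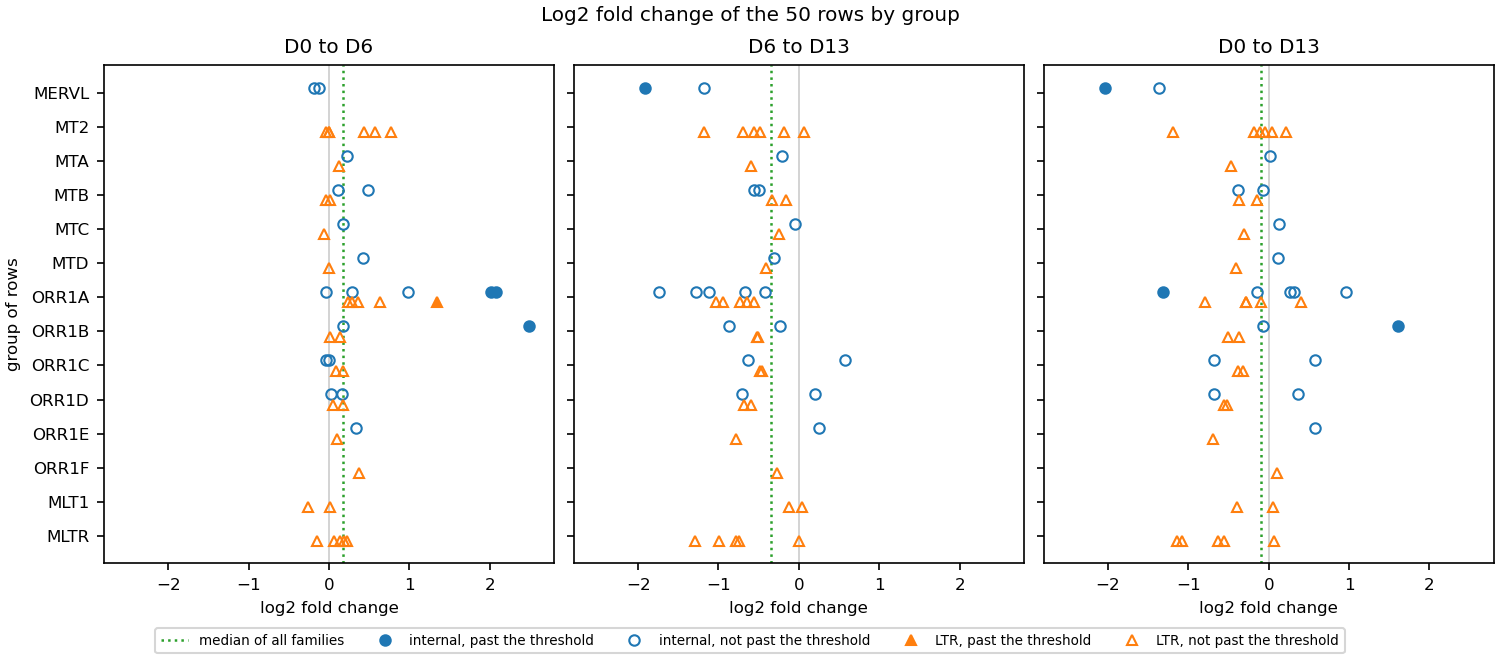
Log2 fold change of each of the 50 families by group, for the 3 comparisons of days, with internal parts as circles and LTRs as triangles, filled where past the threshold. The dotted line is the median of all 302 families, at 0.18, -0.35 and -0.10, and the filled symbols are all in MERVL, ORR1A and ORR1B.

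No MT family was called, in a group too small for its count to be set apart from the shares over all families given above. Of the 10 MTA to MTD families, 0 passed the threshold in any comparison by limma, and 0 had an unadjusted p under 0.05. Their median log2 fold changes were 0.12, -0.32 and -0.23 for D0 to D6, D6 to D13 and D0 to D13, near the 0.18, -0.35 and -0.10 of all families, and single families ranged from -0.60 to 0.49 over these comparisons. MTA_Mm-int, with more reads than any other family of this group, had a log2 CPM of 7.58 and 6.95 in D0 samples, 7.92 and 7.07 in D6 samples, and 7.37 and 7.18 in D13 samples. All 3 days overlapped. Its change from D0 to D13 was 0.01 (SE 0.32, limma adjusted p = 0.975), in the interval in which MERVL-int changed by -2.04. MTA_Mm, its LTR, changed by -0.47, with values of 3.97 and 3.78 at D0 and 3.01 and 3.79 at D13.

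The 6 MT2 LTRs did not pass either. MT2_Mm, the LTR of MERVL, had a log2 CPM of 1.66 and 1.06 in D0 samples, 2.25 and 1.35 in D6 samples, and 1.28 and 1.34 in D13 samples. The days overlapped, and the change from D0 to D13 was -0.05 (SE 0.43, limma adjusted p = 0.930). MT2A had the largest rise to D6 of the group, 0.78, from 1.82 and 1.85 to 3.13 and 2.09, and was back at 2.00 and 2.10 at D13. MT2C_Mm changed by 0.58 and MT2B by -0.03 from D0 to D6. MT2B2, an LTR of an older element, changed by -1.19 from D0 to D13 (SE 0.50, limma adjusted p = 0.0856), with 1.74 and 1.56 at D0 against -0.15 and 1.07.

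The older ORR1 groups and the MLT families held no call, in groups too small for this to be set apart from the shares over all families given above. Of the 11 ORR1C to ORR1F families, 0 passed in any comparison and 0 had an unadjusted p under 0.05 in limma, with medians of 0.10, -0.49 and -0.38. All 6 of their LTRs and 3 of their 5 internal parts had their lowest value in D13 replicate 1. ORR1C1-int did not: it was at 4.07 and 3.67 in D0 samples, 4.06 and 3.67 in D6 samples, and 4.67 and 4.21 in D13 samples, so that both D13 values were the highest. Its change from D0 to D13 was 0.57 (SE 0.29, limma adjusted p = 0.146). The 2 MLT1 families, the oldest here, changed by -0.27 and 0.01 from D0 to D6 and by -0.39 and 0.05 from D0 to D13.

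Families named as internal part and LTR of the same element were compared within samples, where a shift common to both in a library falls out. The study merged LTR and internal fragments of the same copy in its annotation. A family with the ending -int may therefore include LTR sequence, and an LTR family may hold mainly solo LTRs. The names do not tell which, so that a pair need not be parts of the same copies. There were 18 such pairs, 17 matched by name and MERVL-int with MT2_Mm. Only the change of the difference is compared, since the parts differ in length and in number of copies. With 2 samples against 2, an exact permutation test cannot give a two-sided p under 0.333, so that no pair could pass and the values stand as a description. The internal part changed more towards higher values than its LTR in 13 of 18 pairs from D0 to D6, in 8 of 18 from D6 to D13 and in 12 of 18 from D0 to D13. The median changes of the difference were 0.11, -0.03 and 0.37. The changes to D13 carry part of the shift between D13 libraries, which was not common to both parts. Internal parts summed to 492 and 491 CPM in D13 replicates 1 and 2, and LTRs to 91.7 and 173 CPM.

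A few pairs departed widely. ORR1B2-int minus ORR1B2 was 0.99 and 0.50 in D0 samples, 3.15 and 3.29 in D6 samples, and 3.55 and 2.18 in D13 samples, a change of 2.47 from D0 to D6. The LTR itself stayed at 2.59 in both D0 samples and at 2.74 and 2.48 at D6. ORR1A1-int minus ORR1A1 changed by 1.43 over the same days, with 2.67 and 1.82 at D0 and 3.95 and 3.40 at D6. For ORR1A0, where both parts had risen, the difference changed by 0.66 and the days overlapped.

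The 5 MT pairs shifted less and not all in 1 direction. MTD-int minus MTD was -1.61 and -1.92 in D0 samples, -1.27 and -1.41 in D6 samples, and -1.23 and -1.25 in D13 samples. The internal part thus gained on its LTR by 0.42 to D6 and by 0.53 to D13, with no overlap between D0 and either later day. MTB_Mm-int minus MTB_Mm went from -0.80 and -0.59 at D0 to -0.15 and -0.17 at D6 and -0.45 and -0.32 at D13, a change of 0.53 and then of -0.22. MTB-int minus MTB went the other way, by -0.34 from D6 to D13 with no overlap of the days and by -0.24 from D0 to D13. In MTA_Mm, MTC and ORR1A3 the changes were under 0.5 in size and the days overlapped.

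In the ORR1A group the LTRs moved less than their internal parts where those rose. ORR1A1 had values of 0.67 and 0.60 in D0 samples, 1.52 and 1.04 in D6 samples, and 0.24 and 0.85 in D13 samples, a change of 0.64 to D6 that did not pass. ORR1A2-int minus ORR1A2 changed by 0.63 to D6, with no overlap between D0 and D6. ORR1A4, whose internal part fell, was itself at 2.59 and 2.58 at D0 and at 1.35 and 2.25 at D13, and the difference between the parts changed by -0.53 with overlapping days.

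The difference went the other way for MERVL. MERVL-int minus MT2_Mm was 5.69 and 5.78 in D0 samples, 4.90 and 5.43 in D6 samples, and 3.16 and 4.32 in D13 samples. The 3 days did not overlap, and the change from D0 to D13 was -1.99 (two-sided exact permutation p = 0.333, the smallest it can give). It was -1.41 without D13 replicate 1 and -2.57 without D13 replicate 2. Of the 18 pairs, this one had the most negative change from D0 to D13, and ORR1B2 the most positive, 2.12. ORR1E and ORR1D1 changed by 1.27 and 0.91 in the same comparison, and D13 replicate 1 alone gave 1.81 for ORR1E, against 0.29 in replicate 2.

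**Figure D4:**
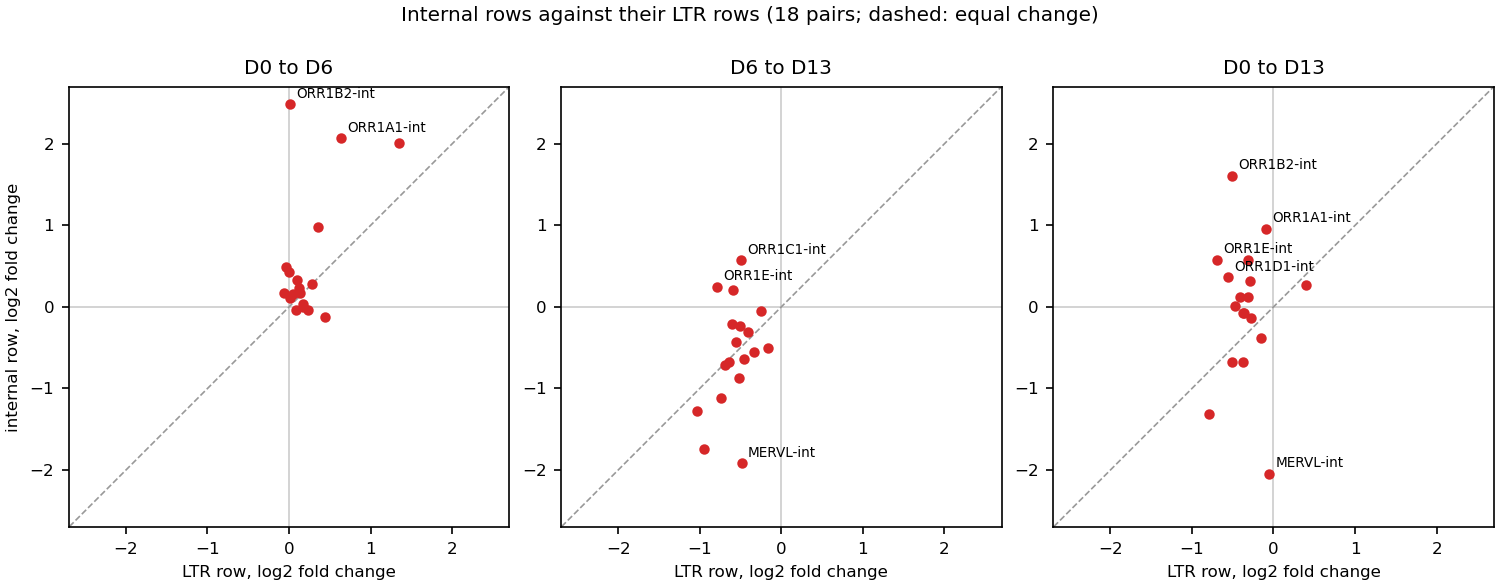
Log2 fold change of each internal part (vertical axis) against that of its LTR (horizontal axis) for the 18 pairs in the 3 comparisons of days, with equal change as the dashed line. Pairs more than 0.9 apart are named, among them ORR1B2-int above the line from D0 to D6 and MERVL-int below it from D6 to D13 and from D0 to D13.

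Genes known to act on class III elements were examined beside them. Dppa2 and Dppa4, partner proteins that activate the transcription factor Dux and through it MERVL, were the activators listed, 2 of 4. Dppa2 had a log2 CPM of 7.44 and 6.81 in D0 samples, 5.79 and 5.81 in D6 samples, and 4.28 and 3.67 in D13 samples. Dppa4 was at 7.66 and 7.72, at 6.16 and 6.09, and at 5.76 and 5.08. The days did not overlap for either gene, and from D0 to D13 both fell, by log2 fold changes of -3.15 (SE 0.29, limma adjusted p = 9.99e-05) and -2.27 (SE 0.25, limma adjusted p = 0.000246). Both had already fallen at D6, by 1.33 and 1.57 on the log2 scale, when MERVL-int had not passed. Among all 12626 genes, 16.3% fell and 16.6% rose from D0 to D13 at the same 2-fold threshold, and 8.87% fell and 11.8% rose by D6.

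Of 32 genes with a known part in the repression of transposons, all 32 were measured. At D6 against D0, 1 rose and 4 fell, none passed between D6 and D13, and at D13 against D0 1 rose and 5 fell. Of all genes, 11.8% rose and 8.87% fell at D6 against D0, 1.38% and 2.65% between D6 and D13, and 16.6% and 16.3% at D13 against D0. The share of the list that fell by D13 was near that of all genes, and the list was not tested against these shares. Over D0 to D13 the median log2 fold change of the 32 genes was -0.45, which was not set against a median over all genes. The repressors that fell by D13 were Dnmt3a, Dnmt3b and Dnmt3l, with log2 fold changes of -2.39, -3.70 and -6.32, Ehmt1 and Rybp. Dnmt3a and Dnmt3b set new DNA methylation, and Dnmt3l is their cofactor without enzyme activity of its own. Ehmt1, a subunit of the enzyme that sets H3K9 dimethylation, changed by -1.16 (SE 0.23, limma adjusted p = 0.00403). Rybp, a subunit of Polycomb complexes, changed by -1.01. Suv39h1, an H3K9 trimethylation enzyme, fell at D6 and was back at D13, with values of 5.92 and 5.36 in D0 samples, 4.41 and 4.23 in D6 samples, and 5.35 and 5.47 in D13 samples. Uhrf1, which directs Dnmt1 to newly copied DNA, rose by 1.11 at D6 and by 1.65 at D13. The other 25, Trim28, Setdb1 and Kdm1a among them, did not pass in any comparison.

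Genes that mark the 2-cell stage or lie beside MERVL LTRs were mostly not listed, with 6 of 20 in the files. Of these, 0 rose in any comparison, and 1, 4 and 3 fell from D0 to D6, D6 to D13 and D0 to D13. Of all genes, 8.87%, 2.65% and 16.3% fell and 11.8%, 1.38% and 16.6% rose in these comparisons. The list was not tested against these shares. The genes that fell by D13 were Zscan4c, Zscan4d and Zscan4f, near-identical copies between which reads may be split. They are therefore not separate counts. Reads in D13 samples were 14 and 13, 15 and 3, and 9 and 2 for these genes in turn. The sizes of these falls thus rest on few reads. Zfp809, which encodes a zinc finger repressor of retroviruses and is not a 2-cell marker in its function, fell from D6 to D13, by 1.58. Of 6 genes for which the study placed a first exon in one of these elements, a list chosen on these same samples, 4 were listed. Oas1f, a gene of the 2′-5′-oligoadenylate synthetase family, rose from -4.98 and -5.13 at D0 to 0.70 and 1.10 at D6. It had 2 reads in each D0 sample, so that the size of this rise is uncertain. Sec24d, a coat protein of vesicles leaving the endoplasmic reticulum, fell from 6.33 and 5.88 at D0 to 3.99 and 4.34 at D13. Their partners on this list, Usp7 and Ppm1a, did not pass. Reads for these genes were counted over the whole gene, and transcripts that start in an element were not counted apart.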

How the data were processed

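RNA-seq libraries of 6 samples were made by the authors from DNase-treated total RNA with a stranded mRNA kit. For genes, the authors mapped reads onto mm10 with TopHat 2.0.6 and counted them with HTSeq 0.6.1. For transposons they removed rRNA reads, mapped with Bowtie 1.0.0 without mismatches, discarded reads in exons, split each read's weight over the sites it mapped to and summed the weights per family of a reconstructed RepeatMasker annotation. Families of alike sequence therefore share reads and are not independent, and whether strand was used for families is not given in the sources used here. The deposited values are log2 CPM, made by the authors from both tables together with TMM and voom. The files hold 12626 genes and 302 families per sample. Reads were read off these values, since each gene value was a whole number of reads plus 0.5, within 0.01 reads, times a constant per sample. Reads on genes ranged from 73230745 to 83688345 and weighted reads on families from 725950 to 1896204 per sample.

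Samples were grouped by day from the labels. Days were compared with limma 3.58.1 (R 4.3.3) on the deposited log2 CPM, with a mean per day, a mean-variance trend and all 6 samples. Benjamini-Hochberg adjustment ran over all 12928 genes and families. A family or gene was called at more than a 2-fold change and an adjusted p under 0.05. The SE is that of limma. The fit was tested on simulated data. Differences between internal part and LTR were compared by an exact permutation test over samples. The labels only number the replicates. The study calls them biological without saying that they are separate cultures, so that p-values measure the spread between these samples only.

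Families named were those past the threshold, the 3 largest rises and falls of each comparison, both parts of a pair, and MERVL-int, MERVL_2A-int, MT2_Mm, MT2A, MT2B, MT2C_Mm and MTA_Mm. Gene lists (repressors, activators, 2-cell genes, genes with a first exon in these elements, cell type markers) named only members that passed. MT2B2, MTA_Mm-int, ORR1B1-int, ORR1C1-int, Usp7, Ppm1a, Trim28, Setdb1 and Kdm1a were named as members of pairs or lists or after their values were seen. The families and lists were chosen with earlier results of these data known. Gene names in the files lack each capital G, and lists were matched by full name, so that Gata4 and Gata6 could not be found. Alternatives were a minimum of 10 reads in 2 samples, a fit without the day not compared, a replicate block, leaving out single samples, adjustment within families, no trend, voom weights, centring on the median gene and no minimum fold. Primer sequences are those the study lists, and transcripts come from GENCODE vM21 (GRCm38, which is mm10).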

Additional observations from a re-analysis of the deposited data

How the results depend on the processing

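The counts of families that passed were 4, 1 and 3 for D0 to D6, D6 to D13 and D0 to D13. Leaving out a single replicate gave 2 to 4, 0 to 4 and 2 to 11. The lowest count from D0 to D6 came without D6 replicate 1. From D6 to D13 it was 0 without D6 replicate 1, without D6 replicate 2 or without D13 replicate 1, and 4 without D13 replicate 2, and the 11 from D0 to D13, 10 of them lower, also came without D13 replicate 2. From D6 to D13, limma without a mean-variance trend gave 0 and the fit with the replicate block 4, which were MERVL-int (adjusted p = 0.00728), ORR1A0-int (0.00197), ORR1A4-int (0.0203) and ORR1A1-int (0.0490). The block gave 4 in the other two comparisons, with MERVL_2A-int (adjusted p = 0.0271) added from D0 to D13. Replicate numbers are shared between days only as labels: over genes, the deviations of same-numbered samples correlated with r of -0.13, 0.33 and 0.14 for D0 with D6, D6 with D13 and D0 with D13, and over families with 0.54, 0.10 and 0.22. The filter on reads, the fit of only the 2 days, adjustment over families, voom weights, centring and no minimum fold gave counts within 1.5 times those reported. For the 8 calls of single families under 13 other settings, 93 of 104 values kept direction and call, 11 kept the direction and lost the call, and 0 reversed. MERVL-int from D6 to D13 was among the 11 without the trend, with a limma adjusted p of 0.0554. MERVL-int minus MT2_Mm changed by -1.99 from D0 to D13, by -2.57 to -1.41 with a replicate left out, and by -1.995 on log2 of reads plus 3. With 2 replicates per day, changes smaller than the shift between libraries could not be told from it. These families had at least 25 reads in each sample, and the part of depth in the calls was not tested.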

Other observations

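The family MT-int, an internal part of MT elements that the naming rule does not take in, had a log2 CPM of 0.45 and -0.06 in D0 samples, 0.79 and 0.32 in D6 samples, and -0.39 and 0.56 in D13 samples. Its change from D0 to D13 was -0.11 (SE 0.50, limma adjusted p = 0.872), within the range of the MTA to MTD families. Of the 9 families with shortened names, 0 passed in any comparison, and their log2 fold changes ran from -0.74 to 0.85 from D0 to D13. The smallest limma adjusted p among them was 0.177.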
